A study of Homo sapiens with 8 samples.

Results

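Matrix metalloproteinases and the inhibitors that hold them in check were followed in IMR90 cells exposed to inflachromene (ICM), a small molecule that binds HMGB proteins. The 10 genes are 6 metalloproteinases (MMP1, MMP2, MMP3, MMP10, MMP14 and MMP16) and the tissue inhibitors of metalloproteinases TIMP1, TIMP2, TIMP3 and TIMP4, each found by its symbol among the 28265 genes of the count tables. The 8 libraries were made from low passage IMR90, a primary human lung fibroblast line of fetal origin, by factory RNA-Seq, a method that sequences nascent RNA held at transcription factories. The labels of these libraries describe poly(A) selection of total RNA instead, and the counts are of exons, so the levels may include mature RNA. There were 2 libraries in each of 4 conditions. The control libraries are labelled young and are described as wild type, with no vehicle named. The treated libraries were taken after 3 or 6 days of ICM. A last pair is labelled MetaICM, and neither the labels nor the methods say what this treatment was or how long it lasted. All conditions come from a single cell line, and nothing says that replicates were separate cultures, so p-values measure the spread between these libraries, which may be technical.

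Matrix metalloproteinases are zinc-dependent enzymes that are made as inactive precursors and, once cleaved, cut collagens, proteoglycans and other proteins of the extracellular matrix. TIMPs bind the active enzymes and block them, and TIMP2 also helps MMP14 to activate the precursor of MMP2 at the cell surface. Fibroblasts are a main source of both, and secreted metalloproteinases are well-known members of the senescence-associated secretory phenotype.

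The libraries held between 12095123 and 23166405 counted read pairs, and each of the 8 correlated best with its own replicate. Levels are given as CPM, the read pairs of a gene scaled to a common library size with TMM factors over all 8 libraries, and levels of different genes are compared only per kilobase of exon. A gene was called higher or lower with an adjusted p under 0.05, from edgeR's quasi-likelihood test and the Benjamini-Hochberg method over all genes tested, and a log2 fold change beyond 0.6 in either direction. All 9 fibroblast markers examined had counts in every library. Their summed level was 23140 to 23310 CPM in control, 12910 to 14290 after 3 days, 10960 to 11330 after 6 days and 20330 to 21220 in MetaICM. The defining markers of other cells stayed near 0 counts, with at most 11 counts for EPCAM (epithelium), 9 for PECAM1 (endothelium) and 24 for PTPRC (leukocytes) in any library. The sum of 5 leukocyte markers was nevertheless 5.14 to 6.43 CPM in control, 18.2 to 22.1 after 3 days, 18.1 to 21.6 after 6 days and 14.5 to 14.9 in MetaICM, most of it CD68. The 5 epithelial markers summed to 4.14 to 5.77 CPM in control, 0.644 to 1.35 and 0.806 to 0.851 after 3 and 6 days and 7.88 to 7.91 in MetaICM, most of it KRT19 in control and MetaICM, and the 4 endothelial markers, most of it TEK, to 184 to 194, 129 to 132, 164 to 196 and 220 to 234 CPM. Their part in the results below was not tested. In bulk libraries such as these, fewer cells of a type and less RNA per cell cannot be told apart.

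The secreted enzymes MMP1, MMP3 and MMP10 moved far more than the rest. They rose after both 3 and 6 days of ICM, by log2 fold changes between 2.87 and 5.51, and stood near the control level in MetaICM. Of the 9 genes tested, 3 were called higher and 3 lower after 3 days, against 8.85% and 13.2% of all 15692 genes tested. After 6 days 3 were higher and 4 lower, against 13.3% and 17.2% of 15950 genes. In MetaICM against control, 0 were higher and 2 lower, against 7.41% and 8.99% of 15904 genes. No member was higher there at an unadjusted p under 0.05 or with DESeq2 either (0 in both). That count of 0 hangs on the threshold. MMP3 had an unadjusted p of 0.05001 from edgeR and a log2 fold change of 0.51, with both MetaICM libraries above both control libraries. The median log2 fold change of the members was −0.21, −0.59 and −0.32 in these comparisons, while that of all genes tested was 0.009, −0.001 and −0.001. These comparisons share the control libraries and are not independent of each other. With library totals in place of TMM, the share of all called genes that were higher after 3 days was 50.3% in place of 40.2%.

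**Figure D1:**
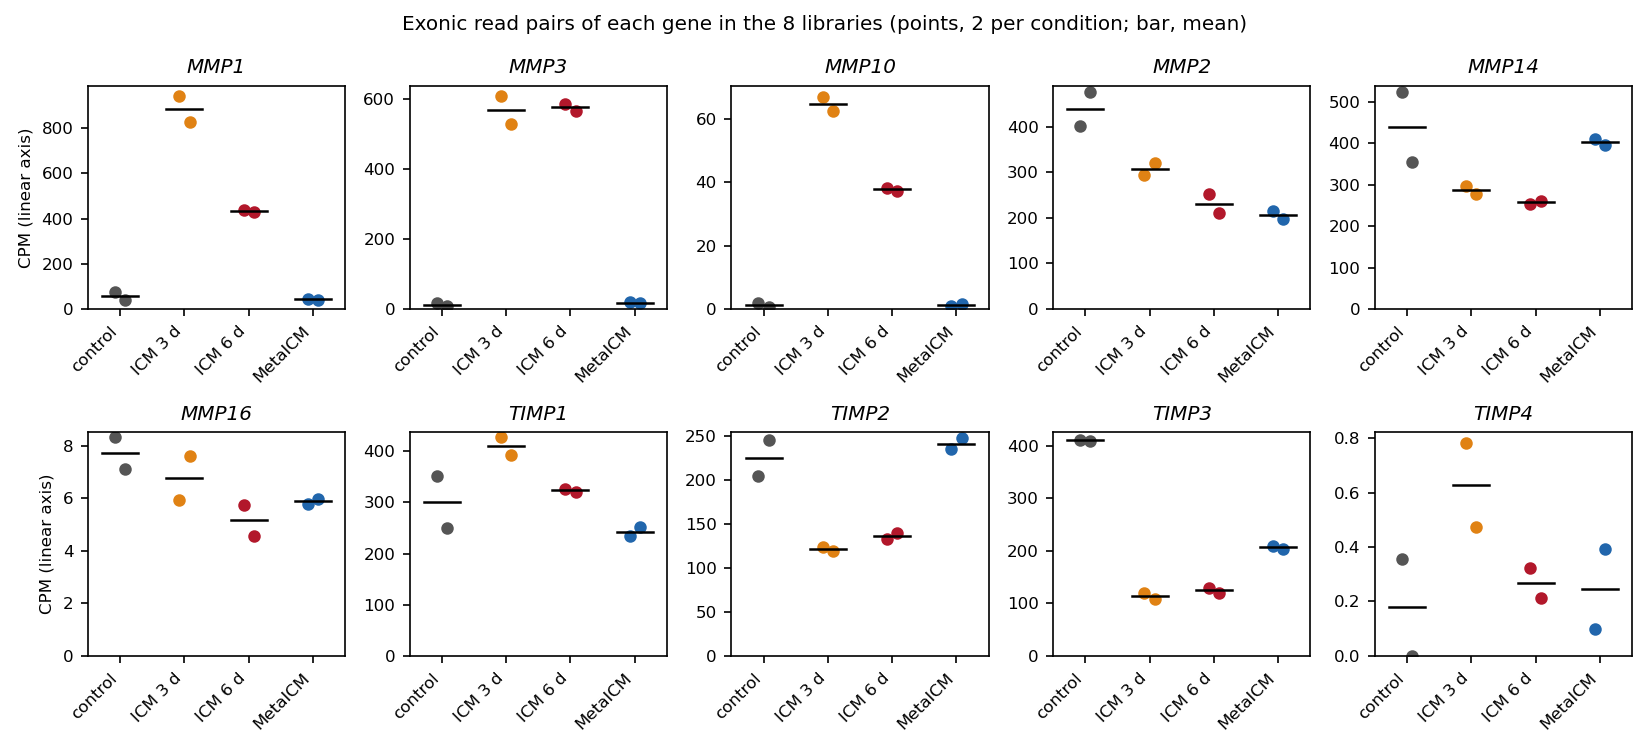
Exonic read pairs of each gene in CPM (linear axis from 0) in every library, with 2 points per condition and a bar at their mean. MMP1, MMP3 and MMP10 sit far above control and MetaICM after 3 and 6 days of ICM, whereas TIMP2 and TIMP3 sit below control at both times.

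Promoter sequences are shown for MMP10 and TIMP3, the genes with an entry in the RefSeq promoter table that rose and fell most with ICM. The table held 5 of the 10 genes, MMP10, MMP14, TIMP1, TIMP3 and TIMP4. Each sequence is the 250 bases before the start of the gene in GRCh38.p14, read 5′ to 3′ on the gene's strand. Capitals mark matches to the AP-1 motif TGANTCA, searched on both strands, and to the TATA box TATAAA, searched on the gene's strand. That of MMP10 lies at chr11:102780629-102780878 on the minus strand and that of TIMP3 at chr22:32801455-32801704 on the plus strand.
MMP10: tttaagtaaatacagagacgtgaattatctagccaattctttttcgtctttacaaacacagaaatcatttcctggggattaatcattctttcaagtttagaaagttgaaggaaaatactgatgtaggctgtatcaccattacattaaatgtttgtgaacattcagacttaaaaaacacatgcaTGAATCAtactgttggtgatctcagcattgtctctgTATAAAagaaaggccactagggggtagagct
TIMP3: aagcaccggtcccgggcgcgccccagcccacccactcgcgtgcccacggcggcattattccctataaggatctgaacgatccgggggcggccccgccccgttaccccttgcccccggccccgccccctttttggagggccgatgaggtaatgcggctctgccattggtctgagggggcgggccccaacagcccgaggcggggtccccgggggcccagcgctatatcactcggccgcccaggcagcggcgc
The MMP10 window has a GC content of 34.4% and holds TGAATCA from −67 to −61 and TATAAA from −31 to −26, with positions counted back from the last base before the start at −1. The TIMP3 window has a GC content of 72.4% and holds neither motif. The windows of TIMP1 (64.8% GC), MMP14 (56.8%) and TIMP4 (62.8%) held neither motif as well. Among the 35116 promoters of the table, 6.57% held the AP-1 motif and 6.8% the TATA box, and the median GC content was 58.0%. The antioxidant response element TGACNNNGC, present in 10.9% of promoters on either strand, was in none of the 5 windows. A match of letters is a description of these windows and does not show that a factor binds there.

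MMP1, interstitial collagenase, which makes the first cut in fibrillar collagen, lies on chromosome 11 of hg19 from 102660650 to 102668891 on the minus strand. It received 75.3 and 42.3 CPM in control, 942 and 829 CPM at 3 days of ICM, 439 and 428 CPM at 6 days, and 44.7 and 42.4 CPM in MetaICM. The 3-day libraries were highest and the 6-day libraries next, with no overlap, while control and MetaICM overlapped. MMP1 rose 15.0-fold after 3 days (log2 fold change 3.91, standard error 0.23, adjusted p = 1.38e-07) and 7.32-fold after 6 days (2.87, standard error 0.22, adjusted p = 3.46e-06). The size rests on which control library is used, with log2 fold changes of 4.39 and 3.35 without control replicate 1 and 3.53 and 2.52 without control replicate 2. Between 3 and 6 days it fell by 1.04 on the log2 scale (standard error 0.09, adjusted p = 1.54e-07). In MetaICM it was 0.44 below control on the log2 scale, with a 95% interval from −0.91 to 0.02 (adjusted p = 0.143), and this difference was called without control replicate 2, the lower of the control libraries (−0.79), and turned to 0.04 without control replicate 1. MetaICM lay 9.95-fold below 6 days of ICM (log2 fold change −3.31, adjusted p = 3.33e-18). Exons of WTAPP1, on the opposite strand, share 150 of the 1971 exon bases of MMP1. Strand was not used in counting and pairs on several genes were left out, and WTAPP1 itself had 1 to 15 counts per library.

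MMP3, stromelysin-1, degrades proteoglycans and laminin and can activate the precursor of MMP1. It lies on the same strand from 102706532 to 102714340. It received 16.1 and 8.70 CPM in control, 608 and 529 CPM after 3 days, 588 and 567 CPM after 6 days, and 19.0 and 17.1 CPM in MetaICM. The 3-day and 6-day libraries overlapped, and both pairs lay far above control. MMP3 rose 44.97-fold after 3 days (log2 fold change 5.49, standard error 0.24, adjusted p = 1.72e-08) and 45.6-fold after 6 days (5.51, standard error 0.23, adjusted p = 7.66e-08). Over the fits that leave out 1 library the 3-day value lay between 5.12 and 6.03 and the 6-day value between 5.16 and 6.04, the ends being those without control replicate 2 and without control replicate 1. The difference between the times was 0.02 on the log2 scale, with a 95% interval from −0.17 to 0.21 (adjusted p = 0.917), and it turned to −0.01 with library totals. Both MetaICM libraries lay above both control libraries, by 0.51 on the log2 scale (standard error 0.23, adjusted p = 0.124), which was not called. Without control replicate 1 this difference was 1.05 and called. MetaICM was 32.1-fold below 6 days of ICM (log2 fold change −5.003, adjusted p = 6.94e-20).

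MMP10, stromelysin-2, is a close relative of MMP3 with a similar range of substrates, and lies from 102641233 to 102651359 on the same strand. It received 2.08 and 0.746 CPM in control, which are 35 and 9 counts, and 66.9 and 62.5 CPM after 3 days. After 6 days it received 38.3 and 37.2 CPM, and in MetaICM 1.04 and 1.52 CPM. The order of the conditions was that of MMP1, with 3 days above 6 days and control overlapping MetaICM. MMP10 rose 42.9-fold after 3 days (log2 fold change 5.42, standard error 0.27, adjusted p = 3.66e-08) and 24.9-fold after 6 days (4.64, standard error 0.27, adjusted p = 6.17e-07). On its few control counts these became 6.42 and 5.63 without control replicate 1 and 4.93 and 4.17 without control replicate 2, all called. It then stood 0.78 lower after 6 than after 3 days on the log2 scale, a log2 fold change of −0.78 (standard error 0.10, adjusted p = 1.76e-05). In MetaICM the log2 fold change against control was −0.20, with a 95% interval from −1.21 to 0.80 (adjusted p = 0.766). Exons were compared in windows of 30 bases moved along base by base, so that neighbouring windows overlap. MMP3 and MMP10 share 100 such windows, of 1532 and 1469, which may come from fewer identical runs. No other pair of these genes shares any. Pairs that map equally well to both were not counted, so both levels may be understated.

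MMP1 and MMP3 changed places with time. Per kilobase of exon, the ratio of MMP1 to MMP3 was 4.32 and 4.49 in control, 1.43 and 1.45 after 3 days, 0.691 and 0.697 after 6 days, and 2.18 and 2.30 in MetaICM. The replicates of each condition agree closely beside the gaps between conditions, and the ratio was lowest after 6 days. The ratio of MMP3 to MMP10 was 7.48 and 11.3 in control, 8.77 and 8.17 after 3 days and 14.8 and 14.7 after 6 days. In MetaICM it was 17.6 and 10.8, on few MMP10 counts.

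The 3 genes belong to a cluster of 9 metalloproteinase genes at 11q22. MMP12, macrophage elastase, is the neighbour of MMP3 in that cluster and was the other gene there with more than 2 counts in a library. It had 1 and 0 counts in control, 50 and 30 after 3 days, 32 and 20 after 6 days, and 2 and 5 in MetaICM. Its level was 63.2 times that of control after 3 days (95% interval from 11.02 to 2527) and 40.1 times after 6 days (from 6.89 to 1615), with intervals that cover counting error only. MMP12 passed the filter on low counts only through the ICM libraries, where it is high, so no test of it is given. MMP7, MMP8, MMP13, MMP20 and MMP27 had at most 2 counts in any library, and their lack of counts limits what can be said of them at this depth.

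**Figure D2:**
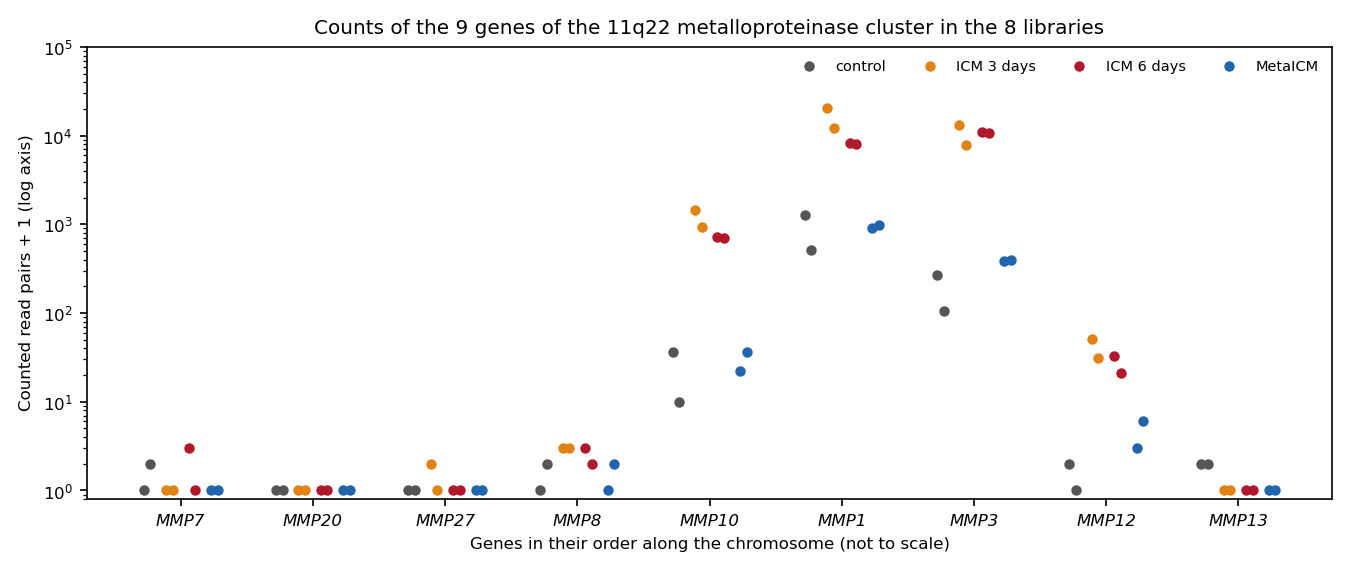
Counted read pairs plus 1 (log axis) of the 9 genes of the 11q22 cluster in each library, in their order along the chromosome, with colours for the 4 conditions. MMP10, MMP1, MMP3 and MMP12, which are neighbours, hold more counts after 3 and 6 days of ICM than in control, and the 5 outer genes hold at most 2 counts in any library.

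MMP2, gelatinase A, which degrades denatured collagen and the type IV collagen of basement membranes, went the other way. It lies on chromosome 16 from 55512742 to 55540603 on the plus strand. It received 402 and 475 CPM in control, 295 and 321 CPM after 3 days, 251 and 212 CPM after 6 days, and 215 and 198 CPM in MetaICM. Control was highest, 3 days next, and the 6-day and MetaICM libraries overlapped at the bottom. The log2 fold change after 3 days was −0.51 (standard error 0.13, adjusted p = 0.0116), short of 0.6, and it was −0.63 and called without control replicate 1. MMP2 fell 1.90-fold after 6 days (log2 fold change −0.93, standard error 0.13, adjusted p = 0.000308). In MetaICM it fell 2.12-fold (−1.09, standard error 0.12, adjusted p = 0.000387), and MetaICM against 6 days gave −0.16 with a 95% interval from −0.33 to 0.01. MMP2 was thus among the genes called lower in MetaICM, where MMP1, MMP3 and MMP10 were not called.

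MMP14, a membrane-type metalloproteinase that activates MMP2 and cuts collagen at the cell surface, lies on chromosome 14 from 23305794 to 23316967 on the plus strand. It received 525 and 355 CPM in control, 297 and 277 CPM after 3 days, 254 and 261 CPM after 6 days, and 410 and 395 CPM in MetaICM. Both ICM times lay below both control libraries, which themselves differed widely and overlapped MetaICM. The fall after 3 days was small (log2 fold change −0.62, standard error 0.17, adjusted p = 0.0146) and was no longer called without control replicate 1 (−0.31), without 3-day replicate 2 (−0.55), with library totals (−0.54) or with the replicate block (−0.596). After 6 days MMP14 fell 1.71-fold (log2 fold change −0.78, standard error 0.16, adjusted p = 0.00326), a call lost without control replicate 1 (−0.47). MMP14 was 1.56-fold higher in MetaICM than after 6 days (0.65, standard error 0.07, adjusted p = 1.53e-07), and its difference between MetaICM and control was −0.13, with a 95% interval from −0.49 to 0.23. MMP16, another membrane-type enzyme, on chromosome 8 from 89044242 to 89339712, was near the low end. It received 8.33 and 7.13 CPM in control, 5.93 and 7.62 after 3 days, 5.75 and 4.57 after 6 days, and 5.80 and 6.00 in MetaICM. None of its differences was called. The one nearest to a call was 6 days against control (log2 fold change −0.59, standard error 0.21, adjusted p = 0.0452), which was −0.69 and called without control replicate 2.

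TIMP1, a secreted inhibitor of most soluble metalloproteinases, lies on the X chromosome from 47441835 to 47446188 inside SYN1, which is on the opposite strand. It received 353 and 249 CPM in control, 427 and 393 CPM after 3 days, 326 and 321 CPM after 6 days, and 234 and 252 CPM in MetaICM. The 3-day libraries lay above all others, and control overlapped both 6 days and MetaICM. The log2 fold change was 0.44 after 3 days (standard error 0.16, adjusted p = 0.0518) and 0.10 after 6 days (95% interval from −0.23 to 0.43), and neither was called. Without control replicate 1 the 3-day difference was 0.72 and called, and without control replicate 2 the 6-day difference was −0.12. TIMP1 was lower in MetaICM than after 3 days (log2 fold change −0.75, standard error 0.09, adjusted p = 6.52e-06). SYN1 shared 0 exon bases with TIMP1 and had 5 to 25 counts per library.

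TIMP2, which blocks MMP2 and also bridges it to MMP14, lies on chromosome 17 from 76849059 to 76921469 on the minus strand. It received 204 and 245 CPM in control, 123 and 119 CPM after 3 days, 133 and 139 CPM after 6 days, and 235 and 248 CPM in MetaICM. Both ICM times lay below control without overlap, and MetaICM overlapped control. TIMP2 fell 1.86-fold after 3 days (log2 fold change −0.90, standard error 0.13, adjusted p = 0.000339) and 1.66-fold after 6 days (−0.73, standard error 0.12, adjusted p = 0.000945). The 6-day call was lost without control replicate 2 (−0.58), where the size fell short of 0.6. MetaICM was higher than 3 days of ICM by a log2 fold change of 1.00 and higher than 6 days by 0.83 (adjusted p = 1.99e-07 and 3.72e-09).

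TIMP3 is bound to the matrix and inhibits ADAM and ADAMTS proteases as well as metalloproteinases. It lies on chromosome 22 from 33196802 to 33259028, inside SYN3 on the opposite strand, which had 20 to 38 counts per library and shared 0 exon bases. It received 410 CPM in both control libraries, 120 and 108 CPM after 3 days, 128 and 120 CPM after 6 days, and 209 and 204 CPM in MetaICM. The 4 conditions were separate, in the order control, MetaICM, 6 days and 3 days, although the 2 ICM times came as near as 119.6 and 119.9 CPM. TIMP3 fell 3.60-fold after 3 days (log2 fold change −1.85, standard error 0.13, adjusted p = 4.76e-07) and 3.31-fold after 6 days (−1.73, standard error 0.11, adjusted p = 9.61e-07). In MetaICM it fell 1.99-fold (−0.99, standard error 0.11, adjusted p = 0.000289). The 6-day and 3-day values differed by 0.12 on the log2 scale, with a 95% interval from −0.08 to 0.31. TIMP3 was called lower than control in all 3 treated conditions, under each alternative run. MetaICM was above 6 days by a log2 fold change of 0.74 (adjusted p = 2.33e-08).

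TIMP4, an inhibitor known chiefly from heart, lies on chromosome 3 from 12194568 to 12200412 inside SYN2 on the opposite strand. It had 6 and 0 counts in control, 17 and 7 after 3 days, 6 and 4 after 6 days, and 2 and 9 in MetaICM. The count of 0 in control replicate 2 allows up to 0.248 CPM. It passed the filter on low counts in 1 comparison, MetaICM against 3 days, where it was not called. There it passed only through the 3-day libraries, where it is high, so no test of it is given. At this depth TIMP4 differences could not be judged.

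**Figure D3:**
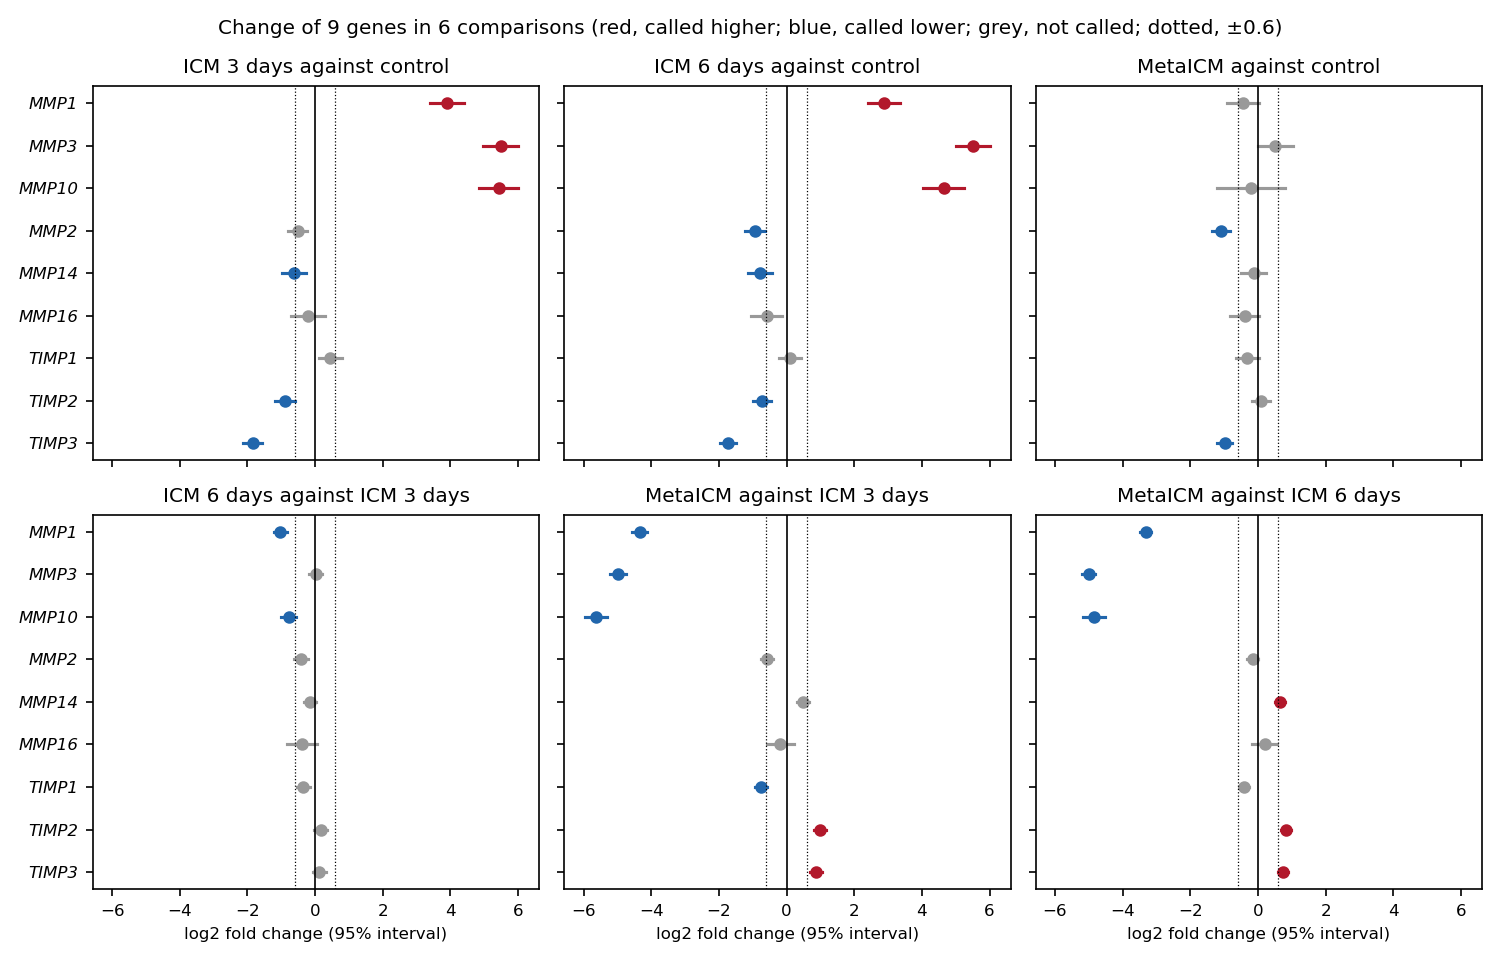
Log2 fold changes (points) with 95% intervals (lines) of the 9 genes other than TIMP4 in 6 comparisons, with dotted lines at 0.6 in either direction. MMP1, MMP3 and MMP10 stand far right of 0 in both ICM comparisons with control and far left in both comparisons of MetaICM with ICM, and TIMP3 stands left of 0 in all 3 comparisons with control.

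Between the ICM times, 2 of the 9 genes tested, MMP1 and MMP10, were called lower after 6 than after 3 days, against 4.54% of 15845 genes, and 0 were called higher, against 3.53%. For the higher direction the count was also 0 at an unadjusted p under 0.05 and with DESeq2. MMP2 and TIMP1 were lower after 6 days at an adjusted p under 0.05 but by less than 0.6, with log2 fold changes of −0.41 (adjusted p = 0.00469) and −0.35 (adjusted p = 0.00832). In MetaICM against 6 days, MMP14, TIMP2 and TIMP3 were higher and MMP1, MMP3 and MMP10 lower, against 15.7% and 12% of 16036 genes. Against 3 days, where all 10 genes were tested, 2 were higher (TIMP2 and TIMP3) and 4 lower (MMP1, MMP3, MMP10 and TIMP1), against 13.1% and 10.3% of 16209 genes. MMP2 was lower in MetaICM than after 3 days by a log2 fold change of −0.57 (adjusted p = 9.34e-05), and was called with library totals, without 3-day replicate 1 or without MetaICM replicate 1.

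Per kilobase of exon, TIMP1 was the most abundant of the 10 genes in every condition, at 391 ± 94.9 CPM per kb (SD, n = 2) in control, 533 ± 31.8 after 3 days, 421 ± 4.29 after 6 days and 316 ± 16.7 in MetaICM. In control it was followed by MMP14 (119 ± 32.5) and MMP2 (107 ± 12.7), whose libraries overlapped, then by TIMP3 (74.7), TIMP2 (61.5), MMP1 (29.8) and MMP3 (6.81). After 3 days MMP1 (449 ± 40.5) and MMP3 (312 ± 30.7) followed TIMP1, without overlap, and after 6 days MMP3 (317 ± 7.98) came before MMP1 (220 ± 4.05). In MetaICM the order began with TIMP1 and MMP14 (109), as in control, but TIMP2 (66.0) came before MMP2 (50.5) and TIMP3 (37.7). MMP10 reached 36.8 CPM per kb after 3 days, above TIMP2 (33.1) and TIMP3 (20.8). MMP16 and TIMP4 stayed under 1 CPM per kb in every library.

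Summed per kilobase, the 6 metalloproteinases came to 289 and 239 CPM per kb in control, 1002 and 900 after 3 days, 698 and 672 after 6 days, and 198 and 188 in MetaICM. The 4 inhibitors summed to 589 and 466 in control, 612 and 564 after 3 days, 484 and 478 after 6 days, and 406 and 433 in MetaICM. The ratio of the sums was 0.490 and 0.513 in control, 1.638 and 1.598 after 3 days, 1.44 and 1.41 after 6 days, and 0.486 and 0.433 in MetaICM. The ratio stood above 1 in the 4 ICM libraries and below 1 in the other 4. MMP1, MMP3 and MMP10 made up 16.7% and 11.1% of the metalloproteinase sum in control, 84.8% and 82.9% after 3 days, 81.3% and 81.8% after 6 days, and 17.04% and 16.94% in MetaICM. Among the inhibitors, TIMP1 made up 77.8% and 69.6% in control and 90.8% and 90.7% after 3 days, while TIMP3 went from 12.7% and 16.0% to 3.561% and 3.503%. These are sums of RNA levels and say nothing of protein or activity.

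**Figure D4:**
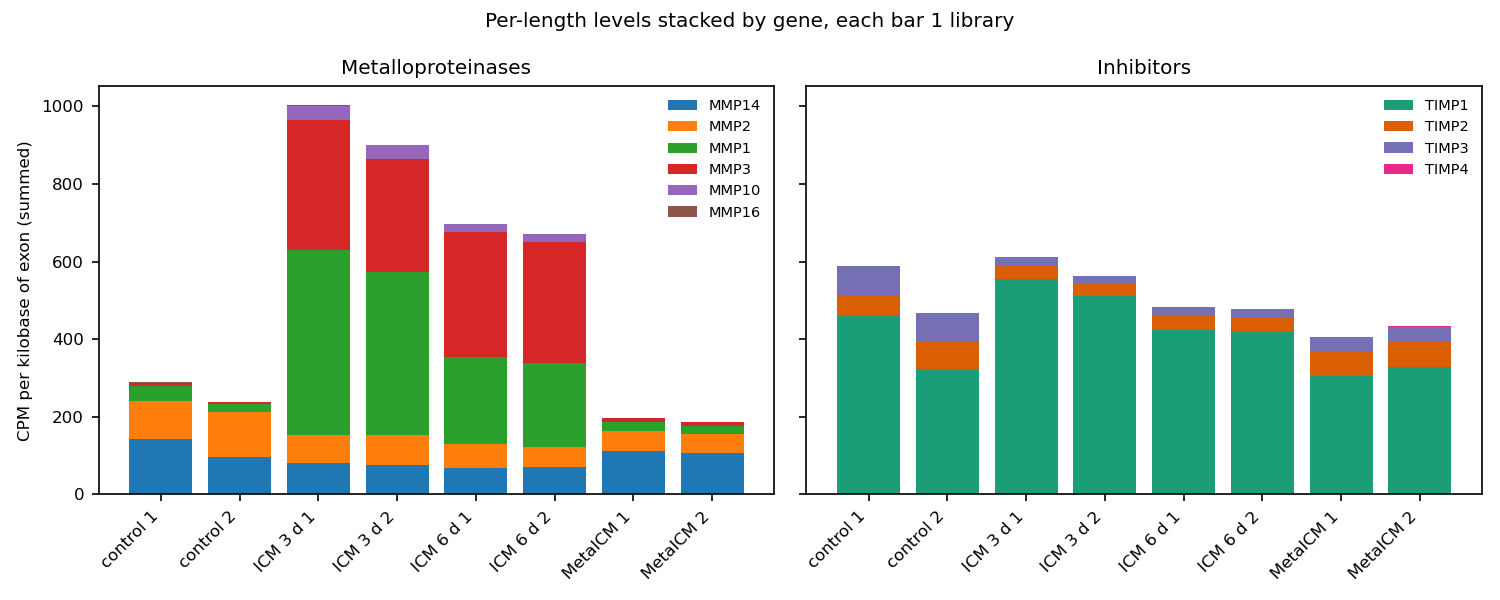
CPM per kilobase of exon summed by gene for the metalloproteinases (left) and the inhibitors (right), with 1 bar per library and a shared axis from 0. The metalloproteinase bars reach 1002 and 900 after 3 days of ICM against 289 and 239 in control, filled mostly by MMP1 and MMP3, while the inhibitor bars stay between 406 and 612.

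Of the 17 other metalloproteinase genes, 8 passed the filter after 3 days of ICM. MMP12 was among them only through the ICM libraries, as described above, so no test of it is given. None of the others was called. After 6 days MMP15, a membrane-type enzyme, was higher (2.20 and 3.15 CPM in control, 4.997 and 5.635 CPM after 6 days, log2 fold change 1.01, adjusted p = 0.0105) and MMP11, stromelysin-3, lower (log2 fold change −1.66, adjusted p = 0.00594). In MetaICM, MMP19 was higher than in control (14.3 and 15.7 against 27.3 and 25.5 CPM, log2 fold change 0.82, adjusted p = 0.0028).

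Of 17 genes that activate, block or clear metalloproteinases, 16 were tested. After 3 days 2 were higher and 3 lower, with a median log2 fold change of −0.04, and after 6 days 4 were higher and 4 lower. Counts this small lie near the shares of all genes called, 8.85% higher and 13.2% lower after 3 days and 13.3% and 17.2% after 6 days, and say nothing of the list as a whole. TFPI2, a matrix-bound inhibitor of plasmin and other serine proteases, had means of 117 CPM in control, 446 and 419 at 3 and 6 days and 93.1 in MetaICM, with a log2 fold change of 1.92 after 3 days (adjusted p = 4.34e-06). SERPINE2, which blocks plasminogen activators, rose after 3 days (log2 fold change 1.598, adjusted p = 1.07e-05). PLAT, tissue plasminogen activator, rose after 6 days (2.40, adjusted p = 1.57e-06). THBS2 had log2 fold changes of −1.68 and −2.18 after 3 and 6 days (adjusted p = 3.61e-06 and 3.38e-06). It was also called lower in MetaICM than in control (−1.85, adjusted p = 3.17e-05). A2M, a broad protease inhibitor, fell less, by 1.59 and 1.07 on the log2 scale after 3 and 6 days (adjusted p = 1.37e-05 and 0.000357).

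A list of 18 genes held AP-1, ETS and RUNX family members, CEBPB and SP1, whose proteins are known to act on metalloproteinase promoters. Of these, 6 were higher and 2 lower after 3 days, and 6 higher and 3 lower of 17 tested after 6 days. Over all genes tested 8.85% were higher and 13.2% lower after 3 days, and 13.3% and 17.2% after 6 days. The lower calls are near these shares. The list was chosen with earlier results of these data known, so no excess of higher calls can be read from it. ATF3 rose, from a mean of 10.3 CPM in control to 35.8 and 47.3 CPM after 3 and 6 days (log2 fold change 1.78 and 2.18, adjusted p = 2.52e-05 and 2.76e-06), and stood at 10.9 CPM in MetaICM. FOSB rose at low levels, from a mean of 1.49 CPM to 3.33 and 3.58 CPM (adjusted p = 0.0213 and 0.00707). RUNX2 and ETS1 fell at both times, by 1.09 and 0.74 on the log2 scale after 3 days (adjusted p = 0.00258 and 0.00241). Another list of 17 genes held growth factors and cytokines that can induce metalloproteinases, and the receptor gene EGFR. At each time 14 were tested, with 1 higher and 4 lower after 3 days and 3 higher and 3 lower after 6 days. The shares of all genes are those given above. After 3 days FGF2 was the higher one (log2 fold change 1.31, adjusted p = 1.79e-05), and IL1A (−2.10, adjusted p = 0.00133) and IL1B (−1.92, adjusted p = 0.00539) were among those lower. After 6 days AREG (2.07, adjusted p = 0.00621) and EREG (1.52, adjusted p = 0.00794) were higher. IL1B, at 3.71 and 3.72 CPM, lay within its control range of 7.32 and 2.73 CPM. IL1A, among those counted as lower, had 17 and 10 counts after 6 days, against 63 and 54 in control. Scaled by library size, its 6-day replicate 2 fell just short of the filter on low counts. It therefore passed through control, where it is high, and no 6-day test of it is given.

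Of 15 matrix substrate genes, all were tested and 4 are also in the fibroblast marker list. After 3 days 0 were higher and 9 lower, and after 6 days 0 were higher and 11 lower. Their median log2 fold changes were −0.72 and −1.04. Among all genes tested 8.85% were higher and 13.2% lower after 3 days, and 13.3% and 17.2% after 6 days. The medians of all genes were 0.009 and −0.001. NID1, a basement membrane linker protein, fell by 1.73 on the log2 scale after 3 days (adjusted p = 6.99e-07). VCAN, a large proteoglycan, fell by 3.47 after 6 days (adjusted p = 5.07e-08). ELN, elastin, had 144 and 45 counts in control, 8 and 4 after 3 days and 5 and 7 after 6 days. It is among the genes counted as lower at both times. But it passed the filter on low counts only through the control libraries, where it is high, so no test of it is given. In MetaICM 0 of the 15 were higher and 4 lower than control, with a median of −0.33. Among all genes tested there, 7.41% were higher and 8.99% lower, with a median of −0.001.

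The genes most alike in pattern to each member were taken as those with the highest Pearson correlation of log2 CPM over the 8 libraries, among 16591 genes. The libraries share conditions and so are not independent, and no test was made. For MMP1 they were PGM1 (0.9967), MSC (0.9964) and AKR1B1 (0.9950). For MMP3 they were PTGR1 (0.9990), GLA (0.9985) and PFKFB3 (0.9970), and for MMP10 AKR1B1 (0.9976), AKR1C3 (0.9957) and NAA50 (0.9952). For TIMP3 they were MOCOS, SLC7A1 and UNC5B (0.9933 for the first), and for TIMP2 DGAT2 (0.9957), SHC2 (0.9945) and CDC42EP3 (0.9924). FMNL2 (0.9955) was most like MMP2, SHMT2 (0.9903) most like MMP14, PKIA-AS1 (0.9878) most like MMP16 and PICK1 (0.9921) most like TIMP1. Among the members, MMP1 and MMP10 were most alike (0.992), and MMP1 and TIMP2 were most opposed (−0.995).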

How the data were processed

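Factory RNA-Seq libraries of IMR90, 2 per condition, were grouped by their titles. The authors aligned reads to GRCh37 (hg19) with STAR (2.6.0c) and deposited counts of read pairs over RefSeq exons, made with featureCounts (1.6.3, per the file headers: both ends mapped, chimeric pairs left out, strand not used). The counts were not normalized. The methods describe nascent RNA, quantified from introns, which is not analysed here, whereas the labels describe poly(A) selection, so exonic counts may include mature RNA.

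Each comparison was fitted on its 4 libraries with edgeR (4.0.16, R 4.3.3), TMM scaling, filterByExpr at 10 counts and the quasi-likelihood test, adjusted by the Benjamini-Hochberg method. Calls needed an adjusted p under 0.05 and a log2 fold change beyond 0.6. CPM values were scaled by TMM over all 8 libraries, and correlations used a prior count of 2. The members and lists were chosen with earlier results of these data known, so their counts of calls beside all-gene shares are descriptive only. Other genes named are, per list and direction, up to 2 called genes with the largest change (at least 10 counts per library of the higher group), and per member up to 3 with the highest correlation. Further genes of the 11q22 cluster and marker genes were named after their values were seen. CEBPB, SP1 and EGFR are named only to describe the lists that hold them.

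Library totals ran from 12095123 to 23166405. Intervals and floors (3 counts for a count of 0) cover counting error only, except the 95% intervals of log2 fold changes. On simulated data for 3 days against control (15452 genes), 84% of 100 changes of 1 on the log2 scale were recovered. Those of 2 were recovered in 100%, and 7 false calls were made. The simulation gave every gene the same spread and placed changes only on well-counted genes. These rates may therefore not hold for genes with few counts or for the more variable control libraries. Alternatives were other scalings, filters, thresholds and depth, DESeq2 (1.42.0), a fit of all 8 libraries, replicate blocks and leaving out each library. Figures were made in matplotlib (3.10.9, Python 3.11.15).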

Additional observations from a re-analysis of the deposited data

Results flagged for a closer look

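In 4 genes a direct test of 6 against 3 days of ICM gave an adjusted p under 0.05 (edgeR), and 2 of them, MMP1 and MMP10, were also beyond 0.6 on the log2 scale and so called. MMP1, with a log2 fold change of −1.04 for 6 days against 3 days, and MMP10, with −0.78, rose less far above control after 6 days than after 3 days. MMP2, with −0.41, was further below control after 6 days. TIMP1, with −0.35, was nearer to control after 6 days. Neither MMP2 nor TIMP1 was called, since both fell short of 0.6. The adjusted p of TIMP1 rose to 0.0979 with all 8 libraries in one fit and that of MMP2 to 0.14 without 6-day replicate 2. In each of these genes both 6-day libraries lay below both 3-day libraries. With 2 libraries per condition, no test for outlying libraries was made.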

How the results depend on the processing

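Of 817 recomputed log2 fold changes of the members, 794 kept their direction and their side of the thresholds, 7 lost a call, 8 gained one and 8 changed sign, and 41 of 55 pairs of gene and comparison had no change at all. With 1 library left out, the remaining one is assumed to vary like the others, and over these fits the following values ranged across 0: TIMP1 after 6 days against control from −0.124 to 0.365, MMP3 after 6 against 3 days from −0.087 to 0.129, and, in MetaICM against control, MMP14 from −0.382 to 0.185, MMP1 from −0.791 to 0.045, MMP10 from −0.687 to 0.789 and TIMP2 from −0.022 to 0.242. None of these was called with all libraries. With library totals MMP3 after 6 against 3 days was −0.009. The count of genes called over the whole table ranged from 2301 to 4068 for 3 days against control (3456 with all libraries), the lowest without 3-day replicate 1, and from 1049 to 4086 for MetaICM against control (2609 with all libraries), the lowest without MetaICM replicate 2 and the highest without control replicate 1. For the latter an adjusted p under 0.01 gave 1532. The number of members called stayed within 5 to 8 after 3 days, 6 to 7 after 6 days and 2 to 3 in MetaICM against control.

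Same-numbered libraries of 2 conditions showed no common deviation in most pairs of conditions (correlations from −0.13 to 0.19), and the labels give the numbers no meaning beyond a count, so they were not taken as pairs. With the replicate block, MMP14 after 3 days was −0.596 and no longer called, and 3915 genes were called over the whole table for 3 days in place of 3456. It changed no other call of a member. The causes were not tested. The control replicates differed most (chi-square per degree of freedom 22.75, against 5.44 to 10.71 in the other conditions), and 2 libraries per condition limit every comparison. Low counts limit MMP16 and TIMP4 throughout, and MMP10 in control and MetaICM.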

Other observations

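Of 19 ADAMTS genes, which encode proteases that cut proteoglycans and procollagens and are in part inhibited by TIMP3, 15 were tested after 3 days of ICM, with 1 higher and 10 lower and a median log2 fold change of −1.06, against 8.85% higher and 13.2% lower over all genes. After 6 days 16 were tested, with 3 higher and 7 lower, against 13.3% and 17.2%. ADAMTS8 fell from a control mean of 154 CPM to 18.1 CPM at 3 days and 33.6 CPM at 6 days (log2 fold change −3.08 and −2.20, adjusted p = 3.20e-08 and 3.46e-06 from edgeR), and stood at 198 CPM in MetaICM. ADAMTS15 fell from a mean of 20.8 CPM to 2.68 and 4.84 CPM. ADAMTS14, which processes procollagen, rose from 13.2 CPM to 24.0 and 35.9 CPM (adjusted p = 0.00194 and 2.80e-05). ADAMTS19 was higher in MetaICM than in control (log2 fold change 2.38, adjusted p = 2.82e-05).

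All 10 membrane ADAM genes listed were tested, with 1 higher and 1 lower after 3 days and 1 higher and 2 lower after 6 days, which is near or below the shares of all genes called, and median log2 fold changes of 0.06 and 0.07. ADAM12 rose from a mean of 18.4 CPM in control to 31.7 and 37.8 CPM after 3 and 6 days (adjusted p = 0.00211 and 0.000419). ADAM33 fell from 26.2 CPM to 10.6 and 3.37 CPM (adjusted p = 0.000506 and 2.51e-06), and ADAM19 fell after 6 days, from 207 to 43.6 CPM (adjusted p = 4.84e-07). ADAM19 and ADAM33 were also the genes of this list called lower in MetaICM than in control.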
